A study of Mus musculus with 4 samples.

Results

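Iron enters most cells bound to transferrin, is stored inside ferritin shells and leaves through the exporter ferroportin. The 9 genes described here carry out or control these steps: Tfrc and Slc11a2 for uptake, Fth1 and Ftl1 for storage, Slc40a1 and Cp for export, Hmox1 for the release of iron from heme, and Aco1 and Ireb2 for regulation. All 9 were found by gene symbol among the 25239 symbols of the count table, and all 9 had enough counts to be tested. They were selected on their counts scaled to library size in the conditional knockout (cKO) and control libraries, so the difference between these groups is described for them and supported by no test.

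RNA-seq of poly(A) RNA was carried out on primary mouse chondrocytes, the cells that make cartilage, to ask how loss of Tiki2 changes them. Tiki2 (gene symbol Trabd2b) is a membrane protease that inactivates Wnt proteins. The control group (2 libraries) had the genotype Tiki2 fl/fl, and the cKO group (2 libraries) had Tiki2 fl/fl with a tamoxifen-inducible Cre, spelled Col2a1-Cre/ERT in the sample titles and Col2a-CreERT2 in the genotype field. Every culture in both groups received 4-hydroxytamoxifen, so the drug is shared, but only the cKO cells carry the Cre, so what the recombinase does by itself and what Tiki2 loss does cannot be told apart. The Cre is driven from Col2a1, a gene of chondrocytes, and other cells in the cultures need not recombine. The labels state no age. They also do not say that the 2 replicates of a group are separate animals or cultures. The p-values below therefore reflect the spread among these 4 libraries, which may be technical in cKO. The 2 controls differ in transcripts that mark sex, as given below, so they are not copies of the same sample. Their spread includes that difference.

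Total counts ranged from 66750140 to 78873054 per library. Trabd2b was still expressed in cKO, with 28513 and 31314 counts in the controls against 22643 and 29473 in cKO. Scaled to TMM library sizes this was 426 ± 14.6 and 327 ± 49.98 CPM (SD, n = 2 each). The fitted difference on the log2 scale was -0.38 with an SE of 0.11, and it did not pass (edgeR adjusted p = 0.148). Counts per gene do not separate the floxed segment from the rest of Trabd2b, so whether the allele recombined cannot be read from them. Control replicate 1 stood apart in sex: it had 112185 counts of Xist and 0 of the Y-linked gene Ddx3y, where the other 3 libraries had 36 to 171 and 11073 to 12085. The cells had the transcripts of chondrocytes, with 12 cartilage markers summing to 28225 and 32822 CPM (counts scaled by library size) in the controls and to 16619 and 12448 CPM in cKO, and 11 of the 12 were called lower in cKO. In bulk RNA, fewer cells of a type and less RNA per cell cannot be told apart. Summed adipocyte markers (8 genes) were 214 and 218 CPM in the controls and 324 and 524 CPM in cKO, and fibroblast markers (9 genes) 8063 and 7821 against 9476 and 10272 CPM. Of the 9 fibroblast markers, 7 had a log2 fold change above 0 and 2 were called higher. Dcn was lower in both cKO libraries (1725 and 1678 CPM in the controls, 1489 and 1517 CPM in cKO). Of 7 adipocyte markers tested, 7 were above 0 and 0 were called. The part of these marker lists in the values of the iron genes was not tested. Macrophages and red cell precursors, which recycle and use much of the body's iron, left little RNA: of 14 macrophage markers, C1qb, Fcgr1 and Tyrobp were at 0 counts in all libraries and the sum was 19.6 to 26.7 CPM, with overlapping groups. The erythroid list (9 genes) summed to 0.225 to 0.427 CPM, and all 4 of its globin genes were at 0 counts.

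**Figure D1:**
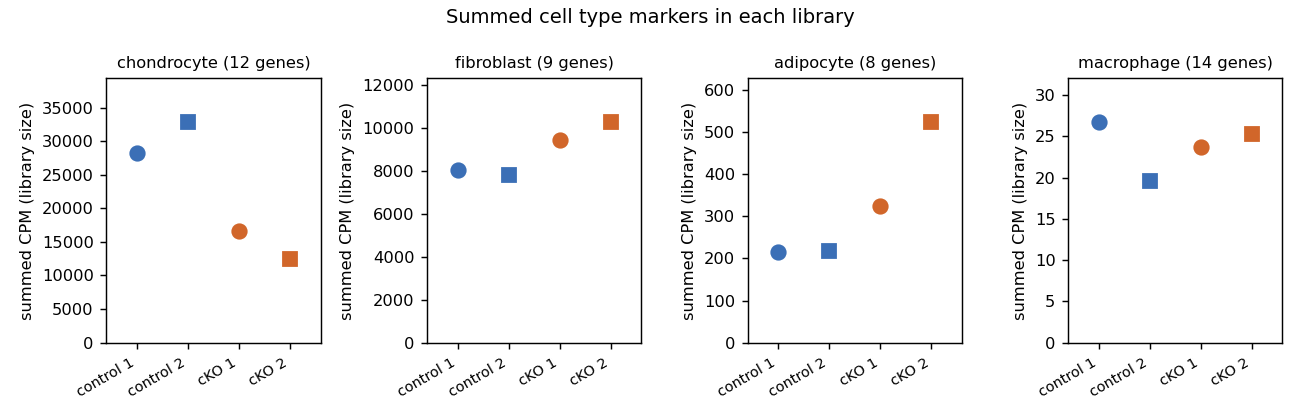
Summed CPM of 4 lists of cell type markers, scaled by library size, 1 point per library (circles replicate 1, squares replicate 2). The chondrocyte sum was lower in both cKO libraries, the fibroblast and adipocyte sums were higher, and the macrophage sum lay between 19.6 and 26.7 CPM with overlapping groups.

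Several of the iron genes share a short RNA hairpin, the iron-responsive element, which the iron regulatory proteins bind when the cell is short of iron. In a 5′ UTR the bound element blocks translation, and in the 3′ UTR of the transferrin receptor transcript it protects the RNA from decay. The elements are shown because they are the known point of control that uptake, storage and export genes share. GENCODE M21 protein-coding transcripts (mm10) were searched on the transcript strand for an unpaired C, a stem of 5 base pairs (G-T pairs allowed, with up to 1 unpaired base on its 3′ side) and a loop CAGTGN whose last base is not G. Of 9 iron genes, 5 held such letters in a UTR, at 8 places. Among all 21864 protein-coding genes searched, 311 (1.42%) held a match, and 4 genes had 2 or more in the 3′ UTR. A match describes the letters only, since no binding was measured. The 6 loop bases are in capitals in the 30-base windows that follow, written as DNA.
Fth1: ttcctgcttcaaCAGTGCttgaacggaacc
Ftl1: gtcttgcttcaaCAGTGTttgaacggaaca
Slc40a1: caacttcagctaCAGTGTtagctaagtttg
Tfrc, most upstream: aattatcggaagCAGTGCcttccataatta
Tfrc, most downstream: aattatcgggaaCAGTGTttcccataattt
Slc11a2: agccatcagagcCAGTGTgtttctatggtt

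The Fth1 element lies in the 5′ UTR at chr19:9982732-9982761 on the plus strand, and that of Ftl1 in the 5′ UTR at chr7:45459778-45459807 on the minus strand. These ferritin elements have the same 5′ stem letters, ttcaa, and differ from the Slc40a1 element in the 5′ UTR at chr1:45925464-45925493 (minus strand), whose stem reads agcta. Tfrc had 4 matches in the 3′ UTR, from chr16:32631219-32631248 to chr16:32631710-32631739 on the plus strand. In Slc11a2 the match at chr15:100395152-100395181 (minus strand) has 1 unpaired base in the 3′ side of the stem. It lies in the 3′ UTR of an alternative transcript, ENSMUST00000138843.7, and not in the principal one, ENSMUST00000023774.11. Counts per gene do not separate these transcripts. No such letters were found in the UTRs of Cp, Hmox1, Aco1 or Ireb2.

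The uptake receptor, the heavy ferritin chain and the ferroxidase ceruloplasmin were lower in cKO, each by about the same amount, while the exporter ferroportin was higher. Heme oxygenase 1 was lower with a wide spread in cKO, the light ferritin chain was slightly lower, and the regulators stayed close to their control level. By the edgeR quasi-likelihood test over all 15522 genes (Benjamini-Hochberg adjusted p under 0.05), 4 of the 9 were called, Tfrc, Fth1 and Cp lower and Slc40a1 higher, where 1.30% of all genes were called (0.908% lower, 0.393% higher). Because the genes were chosen with this contrast in view, nothing is read from that count. The groups did not overlap for 8 of the 9 (6 lower and 2 higher), as for 49.8% of all genes (24.9% lower and 24.9% higher), and 6 of the 9 had a log2 fold change below 0, beside 49.6% of all genes. The median log2 fold change of the 9 was -0.22, beside 0.00 over all genes tested. Without control replicate 1, the library of different sex, none of the 9 was called by edgeR, and 5 genes were called in all. Without control replicate 2 none was called either, among 19 genes in all. Each fit without 1 library compares 1 library of a group with 2 of the other. A call lost or gained there does not measure the size of an effect. Some of the 9 were still called when a cKO library was left out, and why calls were lost was not tested. The 9 fold changes kept their sign in each of these fits. Their median was -0.20 and -0.24 without control replicates 1 and 2, and -0.30 and -0.14 without cKO replicates 1 and 2.

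**Figure D2:**
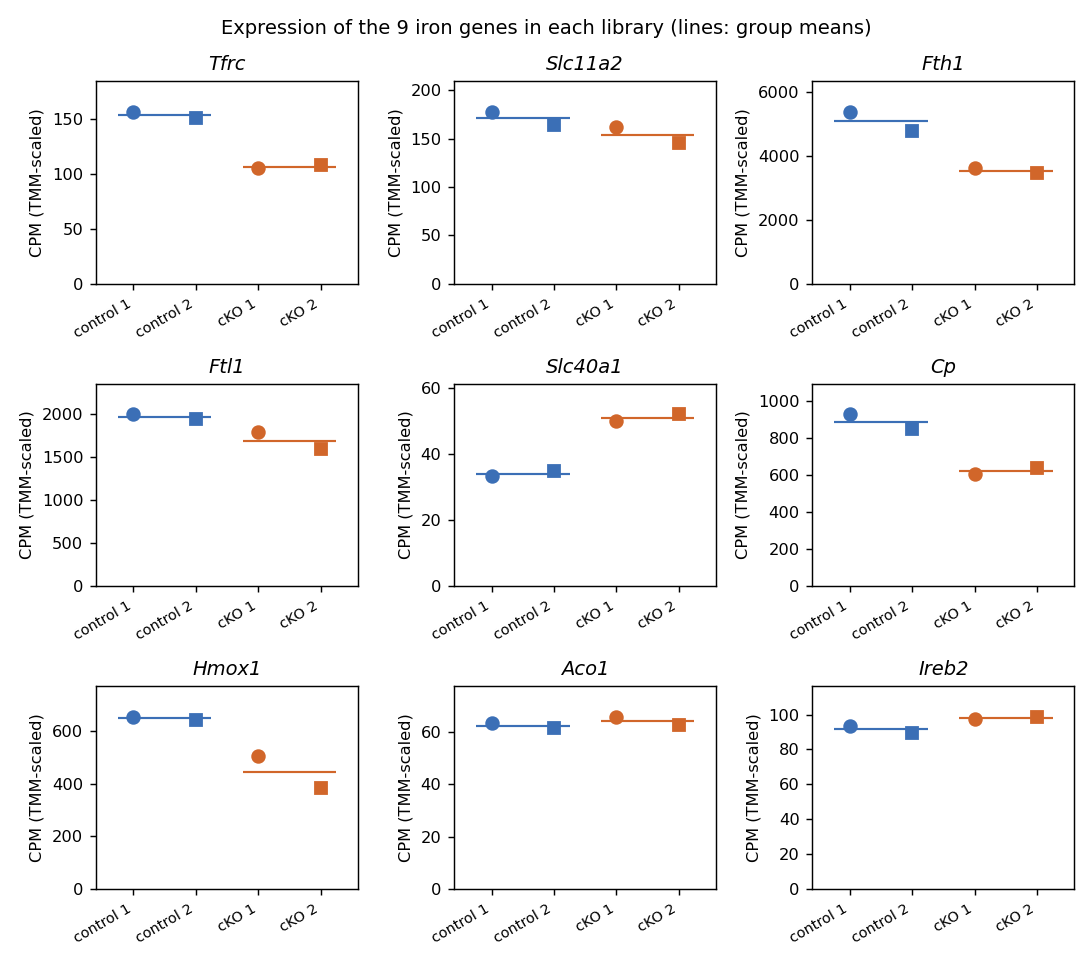
Level of each of the 9 iron genes in CPM (library size scaled by TMM factors) in each library, on axes that start at 0 (circles replicate 1, squares replicate 2; horizontal lines are group means). Tfrc, Fth1 and Cp sit lower in both cKO libraries and Slc40a1 higher, and the cKO libraries lie far apart for Hmox1.

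Tfrc (ENSMUSG00000022797.16, chromosome 16, 32608920 to 32632794, plus strand) encodes transferrin receptor 1, which carries iron-loaded transferrin into the cell. Its level was 156 and 151 CPM in control replicates 1 and 2, and 105 and 108 CPM in cKO replicates 1 and 2. Both cKO libraries lay below both controls by more than the gap within either group, which was 3.41% of the mean in controls and 3.08% in cKO. The fitted log2 fold change was -0.53 ± 0.05 (SE) at 0.693 times the control level, with a 95% interval from -0.66 to -0.40. Slc11a2 (ENSMUSG00000023030.16, chromosome 15, 100387898 to 100425072, minus strand) encodes DMT1, the transporter that moves iron out of endosomes into the cytosol. It had 178 and 164 CPM in the controls and 162 and 145 CPM in cKO. Control replicate 2 and cKO replicate 1 nearly touched, and the fitted log2 fold change was -0.15 ± 0.08 (95% interval -0.33 to 0.03). With library sizes alone the groups overlapped and the value was -0.09. Slc11a2 shares 402 exon bases with Gm5475 on the other strand, which had 0 to 26 counts. The fitted value of the uptake receptor was further from 0 than that of the endosomal transporter, and the difference between the 2 genes was not tested.

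A 60-base stretch of the Tfrc promoter is shown because the gene is a known target of the hypoxia-inducible factors, whose core motif includes ACGTG. It lies at chr16:32608864-32608923 on the plus strand (RefSeq, GRCm38.p6), with the ACGTG letters in capitals.
Tfrc promoter: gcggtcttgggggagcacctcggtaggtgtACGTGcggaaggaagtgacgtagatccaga
Windows of 300 bases around a RefSeq start (250 before, 50 after) were matched for 6 of the 9 genes, Tfrc, Fth1, Ftl1, Cp, Aco1 and Ireb2, with 9 windows in all. ACGTG on either strand was found in Tfrc, at 1 place that its 2 overlapping windows share, and in none of the other 5 genes, and 19.6% of all 32851 windows hold it. TGACNNNGC, the core of the antioxidant response element that Nrf2 binds, was found in none of the 9 windows on either strand, against 12.4% of all windows. Hmox1, Slc40a1 and Slc11a2 had no window, and bases outside the windows were not searched, so an element there would have been missed.

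Ferritin stores iron in a shell of heavy and light chains, and the heavy chain oxidises the iron as it enters. Fth1, the heavy chain (ENSMUSG00000024661.7, chromosome 19, 9980598 to 9985098, plus strand), was at 5387 and 4804 CPM in the controls and 3632 and 3459 CPM in cKO. The groups were well apart, with a gap of 11.4% of the mean between the controls and 4.88% between the cKO libraries. Its log2 fold change was -0.52 ± 0.07 (SE; 95% interval -0.69 to -0.36). Ranked by counts, with no regard to length, it was 11th among all genes in both control libraries, and 14th and 15th in cKO. Ftl1, the light chain (ENSMUSG00000050708.16, chromosome 7, 45457944 to 45459884, minus strand), had 1994 and 1941 CPM in the controls and 1785 and 1597 CPM in cKO. Its controls were close together and above both cKO libraries, which differed by 11.1% of their mean. The log2 fold change was -0.22 ± 0.07 (95% interval -0.38 to -0.06). Together the ferritin chains took 0.723% and 0.658% of all counts in the controls and 0.550% and 0.521% in cKO. The mouse genome holds processed copies of ferritin genes, and how reads that match several places were counted is not stated, so both ferritin levels are uncertain. Ftl1 also shares 355 exon bases with Gm10252 on the other strand and 109 with the miRNA gene Gm22133 on its own strand.

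The balance between the ferritin chains can be read within each library, where scaling cancels. Per kilobase of principal transcript, Fth1 exceeded Ftl1 2.81-fold and 2.58-fold in control replicates 1 and 2, and 2.12-fold and 2.26-fold in cKO replicates 1 and 2. The mean ratio was 2.70 ± 0.167 in controls and 2.19 ± 0.0968 in cKO (SD, n = 2 each), and the groups did not overlap. With the length of all annotated exons in place of 1 transcript the ratios were 1.04 and 0.956 against 0.786 and 0.837. Which chain is more abundant thus depends on the gene model. A change of length multiplies every library by the same factor, so it cannot alter the order of the libraries.

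Slc40a1 (ENSMUSG00000025993.10, chromosome 1, 45908068 to 45926523, minus strand) encodes ferroportin, the only known iron exporter of mammalian cells. Its level was 33.2 and 35.0 CPM in the controls and 49.9 and 52.0 CPM in cKO, from 2171 to 4226 counts per library. The replicates lay close together and the groups far apart, with cKO 49.6% higher. Its log2 fold change was 0.58 ± 0.07 (SE; 95% interval 0.40 to 0.76), the highest among the 9. Cp (ENSMUSG00000003617.16, chromosome 3, 19957054 to 20009145, plus strand) encodes ceruloplasmin, a copper-containing ferroxidase that oxidises iron as it leaves through ferroportin. Its level was 926 and 845 CPM in the controls and 605 and 636 CPM in cKO. Both cKO libraries were below both controls, and the log2 fold change was -0.51 ± 0.07 (95% interval -0.68 to -0.35). The exporter and its ferroxidase thus lay on opposite sides of their control levels. Cp shares 108 exon bases with Hps3 on the other strand, whose own counts were 1207 to 1485, and without a known strand setting reads there cannot be told apart.

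Within a library the uptake receptor can also be set against the exporter. Tfrc exceeded Slc40a1 per kilobase by 3.24-fold and 2.98-fold in the controls, and by 1.45-fold and 1.43-fold in cKO. The mean ratio was 3.11 ± 0.189 in controls and 1.44 ± 0.0101 in cKO (SD, n = 2 each). With all annotated exons as the length, the means were 6.56 and 3.04, with every library rescaled by the same factor. The ratio of Ireb2 to Aco1 per kilobase of principal transcript, by contrast, was 0.977 and 0.964 in the controls and 0.982 and 1.04 in cKO.

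**Figure D3:**
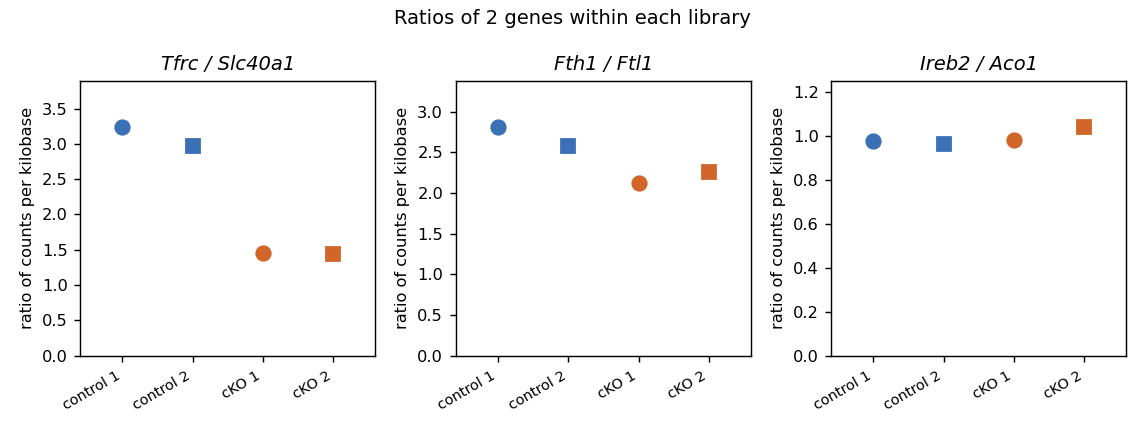
Ratios of counts per kilobase of principal transcript between 2 genes, 1 point per library (circles replicate 1, squares replicate 2). Tfrc over Slc40a1 was 2.98 or more in both controls and 1.45 or less in cKO, Fth1 over Ftl1 was 2.58 or more against 2.26 or less, and Ireb2 over Aco1 lay between 0.964 and 1.04 in all 4.

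Hmox1 (ENSMUSG00000005413.8, chromosome 8, 75093621 to 75100589, plus strand) encodes heme oxygenase 1, a stress-induced enzyme that opens the heme ring and frees its iron. It had 654 and 644 CPM in the controls, and 505 and 383 CPM in cKO. The controls were 1.56% of their mean apart and the cKO libraries 27.6%, the widest gap within a group among the 9. Its log2 fold change was -0.55 ± 0.13 (SE; 95% interval -0.85 to -0.24), about as far from 0 as that of Tfrc with a wider interval. Without cKO replicate 1 the value was -0.76 and without cKO replicate 2 it was -0.36. As the gene with the largest range over the libraries, 0.77 on the log2 CPM scale, Hmox1 was compared with 9931 other genes of at least moderate level (mean log2 CPM of 3 or more). The 3 closest profiles over the 4 libraries, by Euclidean distance between centred log2 CPM values, were the Wnt receptor gene Fzd9 (0.028), the inositol phosphate kinase gene Ip6k3 (0.033) and the sulfate transporter gene Slc26a2 (0.043). Slc26a2 had 130 and 132 CPM in the controls and 99.9 and 77.7 CPM in cKO. That it shares the order of the cKO libraries with Hmox1 follows from the choice by profile. The cartilage marker sums given above were also lowest in cKO replicate 2, and their part in the Hmox1 values was not tested.

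Aco1 and Ireb2 encode the iron regulatory proteins, which bind iron-responsive elements. Aco1 is also the cytosolic aconitase when it holds an iron-sulfur cluster, and Ireb2 is degraded as a protein when iron is plentiful. Aco1 (ENSMUSG00000028405.9, chromosome 4, 40143081 to 40198338, plus strand) had 63.7 and 61.6 CPM in the controls and 66.0 and 63.0 CPM in cKO. Its groups overlapped, though not with library sizes alone (log2 fold change 0.11), and the fitted log2 fold change was 0.04 ± 0.06 (SE; 95% interval -0.10 to 0.19). Ireb2 (ENSMUSG00000032293.8, chromosome 9, 54863789 to 54912530, plus strand) had 93.7 and 89.4 CPM in the controls and 97.6 and 98.7 CPM in cKO. Both cKO libraries were slightly above both controls, with a log2 fold change of 0.10 ± 0.06 (95% interval -0.04 to 0.24). These intervals reach up to 0.19 for Aco1 and 0.24 for Ireb2, and activity of the proteins cannot be read from RNA.

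**Figure D4:**
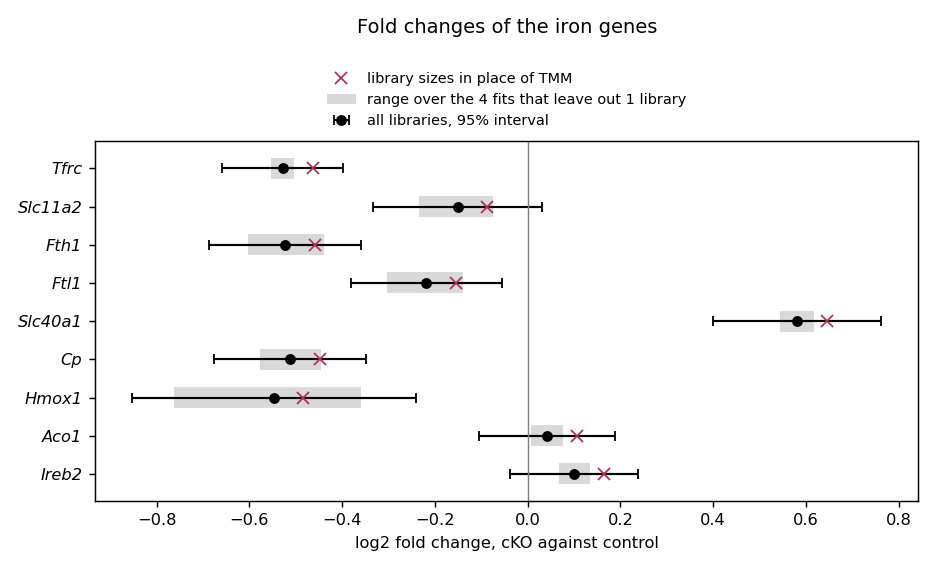
Fitted log2 fold changes of the 9 iron genes, cKO against control, with 95% intervals (black), the range over the 4 fits that each leave out 1 library (grey) and the value with library sizes in place of TMM factors (crosses). Tfrc, Fth1, Cp and Hmox1 lie between -0.55 and -0.51, Slc40a1 lies at 0.58, and Hmox1 has the widest range.

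Set beside each other, the 5 genes with letters of an iron-responsive element lay on both sides of 0 (log2 fold change). Of the 3 with a match in the 5′ UTR, Fth1 (-0.52) and Ftl1 (-0.22) were lower in cKO and Slc40a1 (0.58) was higher. Of the 2 with a match in the 3′ UTR, Tfrc was at -0.53 and Slc11a2 at -0.15. The 4 genes with no match ranged from -0.55 for Hmox1 to 0.10 for Ireb2.

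Levels can be compared between genes only per length. The order of Fth1 and Ftl1 depends on the gene model, as given above, and so does that of Aco1 and Ireb2. With all annotated exons as the length, Aco1 lay above Ireb2 without overlap. The values were 13.7 to 14.2 against 9.43 to 9.88 in the controls, and 14.0 to 14.7 against 10.3 to 10.4 in cKO. In CPM per kilobase of principal transcript, the order in the controls was Fth1 (5171 to 5799), Ftl1 (2006 to 2060), Hmox1 (410 to 417), Cp (210 to 230), Slc11a2 (54.2 to 58.7), Tfrc (30.9 to 31.9), Aco1 (16.1 to 16.6), Ireb2 (15.5 to 16.2) and Slc40a1 (9.85 to 10.4). Of the neighbours in that order, Aco1 and Ireb2 overlapped over the 2 libraries. In cKO the order was the same except that Ireb2 (16.9 to 17.1) and Aco1 (16.4 to 17.2) traded places while still overlapping, and Slc40a1 stood at 14.8 to 15.4. Storage transcripts thus exceeded the uptake and export transcripts in every library.

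Other genes of iron and heme handling, 97 in 7 lists, gave few calls. Of the 89 tested, 1 rose (Steap2) and 4 fell (Lcn2, Slc39a14, Cpox and Slc7a11), which is 5.62% beside the 1.30% over all genes. The lists were drawn up with earlier results known, the fall of Lcn2 among them, so this share is no independent evidence. Their median log2 fold change was -0.05, and 24 (27.0%) had an unadjusted edgeR p under 0.05 beside 17.2% of all genes. Leaving out a control left 0 of them called (without replicate 1) or 1 (without replicate 2), and leaving out a cKO library gave 12 (without replicate 1) or 3 (without replicate 2). Lcn2 was the gene called without control replicate 2.

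Uptake gave 3 of the 5 calls. Lcn2, a secreted protein that binds iron-carrying siderophores, fell from 4147 and 3265 CPM in the controls to 2047 and 1911 CPM in cKO (log2 fold change -0.90 ± 0.11, edgeR adjusted p = 0.0319). It is also an acute-phase protein. Slc39a14, which encodes ZIP14, a transporter of iron not bound to transferrin, fell from 539 and 509 CPM to 395 and 376 CPM (-0.44 ± 0.06, edgeR adjusted p = 0.0375). Its groups did not overlap, and the change was close in size to that of Tfrc. Steap2, a metalloreductase that can reduce iron, rose from 142 and 146 CPM to 182 and 184 CPM (0.35 ± 0.05, edgeR adjusted p = 0.0448). It was not called when no filter on low counts was used. Over the 14 uptake genes tested the median was -0.34, with 11 below 0, beside 49.6% of all genes below 0. With library sizes alone the median was -0.28, beside 0.07 over all genes tested.

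Heme and redox genes gave the other 2 calls. Cpox, an enzyme of heme synthesis, fell from 69.2 and 71.0 CPM in the controls to 52.9 and 49.7 CPM in cKO (-0.45 ± 0.06, edgeR adjusted p = 0.0375), the 1 call among 21 heme genes. Hmox2, the constitutive heme oxygenase, had 44.4 and 45.1 CPM in the controls and 44.8 and 42.2 CPM in cKO (log2 fold change -0.04 ± 0.07). It is named beside Hmox1 for its function, after its values were seen. Slc7a11, the cystine importer that feeds glutathione synthesis, fell from 49.7 and 45.7 CPM to 24.1 and 16.8 CPM (-1.22 ± 0.17, edgeR adjusted p = 0.0375). It was the 1 call among 13 other genes known as Nrf2 targets. Of these 13, 5 (38.5%) had an unadjusted edgeR p under 0.05, beside 17.2% of all genes. DESeq2 called 4 of the 13, and it called 7.95% of all genes that it gave an adjusted p. The median of the heme genes was -0.03 and that of the Nrf2 list -0.03, and both became 0.04 with library sizes alone. That scaling also moved the median of all genes tested, from 0.00 to 0.07.

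The remaining 4 lists gave no edgeR call. Among 25 mitochondrial iron and iron-sulfur genes, 3 (12%) had an unadjusted edgeR p under 0.05, beside 17.2% of all genes. DESeq2 called 1 of the 25, beside 7.95% of all genes that it gave an adjusted p, and limma-voom 0, beside 2.15%. The 3 lowest p-values belonged to Nfs1 (log2 fold change 0.42 ± 0.11), Lyrm4 (-0.46 ± 0.14) and Hspa9 (-0.24 ± 0.09). Nfs1 and Lyrm4 encode partner proteins of the complex that supplies sulfur to iron-sulfur clusters, and Hspa9 a mitochondrial chaperone. Of 10 export and regulation genes tested, 3 had an unadjusted p under 0.05 and neither DESeq2 nor limma-voom called any (0 each). They were Atoh8 (0.28 ± 0.09), a transcription factor, Rnf217 (-0.23 ± 0.09), a ubiquitin ligase, and Heph (0.70 ± 0.26), a membrane ferroxidase related to ceruloplasmin. Heph was at 6.62 and 10.3 CPM in the controls and 11.3 and 16.2 CPM in cKO. Hepcidin, the hormone that closes ferroportin, is encoded by Hamp, which had 0 counts in all 4 libraries, where 3 counts would have been 0.038 to 0.0449 CPM.

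Storage partners and the other genes known to carry iron-responsive elements gave 0 calls by edgeR, DESeq2 and limma-voom, and 0 at an unadjusted edgeR p under 0.05. Ncoa4, the receptor that delivers ferritin to lysosomes, had a log2 fold change of 0.06 ± 0.06, and the iron chaperones Pcbp1 and Pcbp2 had -0.11 ± 0.06 and -0.10 ± 0.06. Of 5 element-bearing genes, Cdc42bpa had 0.16 ± 0.07, and Epas1, which encodes a hypoxia-inducible factor, had -0.27 ± 0.18. The median of these 5 was 0.07.

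**Figure D5:**
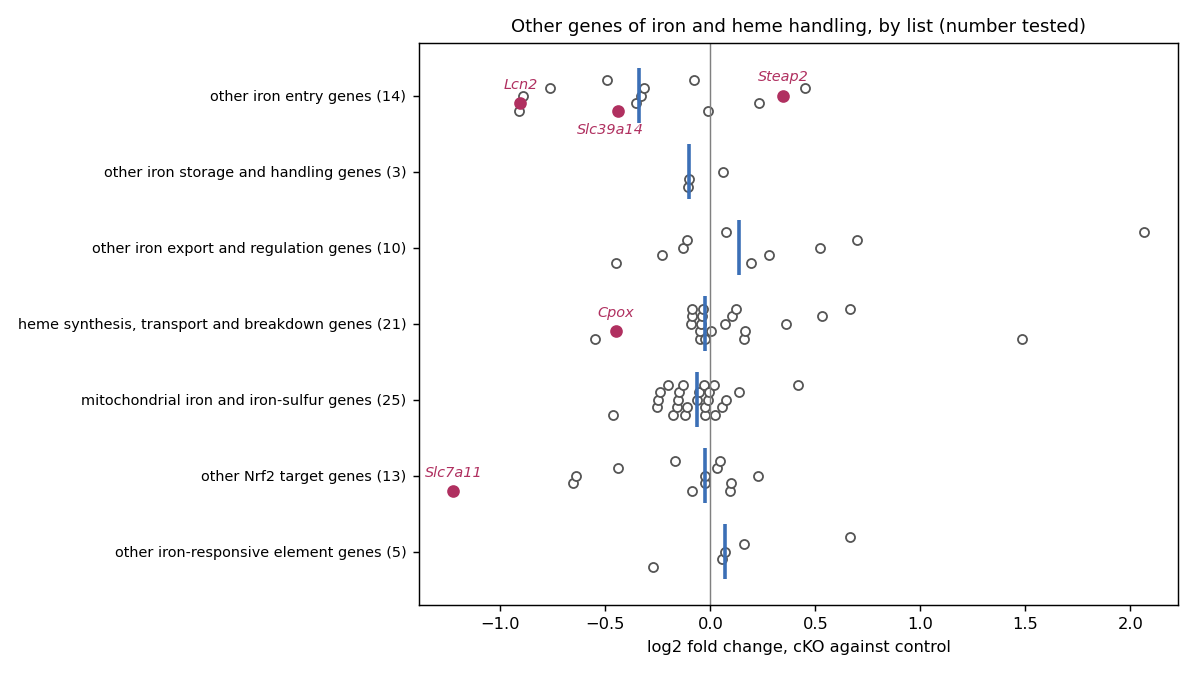
Fitted log2 fold changes, cKO against control, of the other tested genes of iron and heme handling, 1 point per gene by list (number tested in brackets), with the list median as a blue bar. Filled points mark the 5 genes called by edgeR at an adjusted p under 0.05, of which Steap2 lies above 0 and the other 4 below.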

How the data were processed

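Counts were measured in 4 libraries of mouse chondrocytes, 2 per group, with groups taken from the sample titles. The authors deposited whole-number counts per gene symbol, not scaled to library size. Named in the submitters' processing notes, with no roles, are HISAT2 (version 2.2.1), StringTie (2.1.7), Trim Galore (0.6.7), FastQC (0.11.9) and the build mm10. Which tool counted the reads, with which strand setting and annotation, is not stated. Fragmented poly(A) RNA was primed at random positions, per the labels' protocols.

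Genes were kept by filterByExpr (minimum count 10), scaled by TMM and tested with the edgeR 4.0.16 quasi-likelihood test (R 4.3.3) with Benjamini-Hochberg adjustment over all 15522 genes tested. Intervals come from the same fit. In a check of the step on simulated data, most of the changed genes were called, all in the right direction. Unchanged genes were called too, and they made up a larger share of the calls than the adjusted p threshold allows for. The calls given here may therefore include more unchanged genes than that threshold implies. Unless stated, CPM uses TMM-scaled library sizes and ± is SE for log2 fold changes and SD for levels. Positions, lengths and transcripts are GENCODE M21 (mm10). The principal transcript was chosen by APPRIS tag, then a RefSeq mRNA match, then length. Promoter windows are RefSeq.

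The 9 genes, the other lists and the tests were chosen with earlier results of these data known. Named genes were the 9, every called gene of each list or otherwise its 3 lowest p-values, and the 3 profiles nearest to the most variable of the 9. A gene that this rule takes from the lists is not reported here. Alternatives were other scalings, no filter, DESeq2 1.42.0, limma-voom (limma 3.58.1), counts divided by 4 (30.0% to 32.0% of counts from 1 to 20 were multiples of 4), each library left out, and a replicate block.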

Additional observations from a re-analysis of the deposited data

How the results depend on the processing

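All 108 fold changes of the 9 genes under 12 alternatives kept their sign, but the fits reuse the same libraries. Their median ranged from -0.30 without cKO replicate 1 to -0.14 without cKO replicate 2. The count of genes called, 202 with edgeR, was 1099 with DESeq2, 333 with limma-voom, 371 with counts divided by 4, and 5 to 782 when 1 library was left out. With library sizes alone the calls split into 116 higher and 123 lower, against 61 and 141 with TMM. For the other iron and heme genes, 5 calls became 13 with DESeq2, 8 with limma-voom, 9 with counts divided by 4, and 0 to 12 with a library left out. The cause was not tested.

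The replicate numbers are shared by the groups but not said to mark a shared animal or day, and deviations of same-numbered libraries had a correlation of -0.12 over genes. With the number as a replicate block, 23 genes were called in all, 1 of the other iron and heme genes (Lcn2) and 0 of the 9. With the crossed pairing as a block, added after seeing the data, 564 genes, 9 of the other iron and heme genes and 5 of the 9 were called. With 2 libraries per group, a call that is lost or gained this way does not measure the size of an effect.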
